A study of Homo sapiens with 8 samples.

Results

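The loci of 9 genes for mechanosensitive ion channels were examined in chromatin accessibility data of a human hepatic stellate cell line: PIEZO1, PIEZO2, TRPV4, TRPC1, TRPC6, TRPM7, KCNK2, PKD1 and PKD2. A locus was the annotated gene body with 50 kb on each side, and a site belonged to a locus if the summit of its strongest peak lay inside it. The loci held 92 of the 75501 consensus sites of the series, and the 9 genes were drawn from 20136 annotated protein-coding genes. A consensus site is a stretch of merged peaks with a peak in at least 2 of 8 libraries.

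Stretch-sensitive channels open when the membrane or the proteins anchored to it are put under tension, and let calcium or other ions pass. PIEZO1 and PIEZO2 are pressure-gated cation channels, TRPV4 answers to swelling and stretch, TRPC1 and TRPC6 belong to the canonical TRP family, and TRPM7 joins a channel for magnesium and calcium to a kinase. KCNK2 encodes the potassium channel TREK-1, and PKD1 and PKD2 encode polycystin-1, a large receptor-like membrane protein, and polycystin-2, the cation channel it pairs with. Hepatic stellate cells store vitamin A in the healthy liver and turn into matrix-producing myofibroblasts in fibrosis, a change that a stiff substrate promotes.

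The cells were LX-2, an immortalised line that its labels call wild type, and all groups were grown on fibronectin-coated polyacrylamide hydrogel. The groups were D2 soft (about 2 kPa, 2 days), D2 stiff (about 40 kPa, 2 days), D4 soft and D4 stiff (the same gels, 4 days), with 2 libraries in each. ATAC-seq, in which a transposase cuts open chromatin, gave 1 peak list for each library, and no RNA level or protein enters here. The study's methods call the replicates biological without saying what was kept apart, and 1 cell line cannot show how donors differ.

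The lists held 29789 to 72840 peaks, and the shortest was that of D2 soft replicate 1, next to 55754 in replicate 2 of that group. The 4 stiff libraries had 59277 to 72840 peaks and the 4 soft libraries 29789 to 63272, so a site can be missing from a short list for reasons that presence alone cannot tell apart. Read depth is unknown from these lists. Of 10 stellate and mesenchymal marker genes, 6 had a promoter peak in every library (PDGFRB, COL1A1, VIM, SPARC, TIMP1 and ACTA2), and COL3A1 and DES had none in any. Of 5 hepatocyte markers none had one in every library, with ALB, APOA1 and HNF4A at 0 libraries. The T cell and leukocyte genes CD3E and PTPRC were also at 0 libraries, whereas CD68 and CD14 had a promoter peak in all 8, KDR in 7 and EPCAM in 6. The part of other cell types in the results was not tested.

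Of the sites described below, 8 are shown by their sequence, read from GRCh37 for 201 bp around the summit, as examples of high rank and of one matrix only. The first 3 are a site behind the end of TRPC1, a site upstream of PKD2 and the PKD1 promoter, which had high ranks and a peak in every library. Then follow a PIEZO2 and a TRPC6 site that were of the stiff matrix only on one day, and 3 sites in the PIEZO1, TRPV4 and TRPC1 loci with a peak in both D4 stiff libraries and in no other. Capitals mark 3 motifs, searched on both strands and thus also as their reverse complements: TGACTCA of the AP-1 factors, GGAATG of the TEAD factors, and the GC box GGGCGG. No 2 of these matches share letters in the windows shown. Further windows were read and are not shown, and none of them held any of the 3 motifs. They were the PIEZO2 locus site at the LINC01887 start, the PKD2 locus site at the SPP1 start, and the KCNK2 intron 2 and TRPM7 intron 1 sites. The windows shown thus hold matches more often than all windows read.
TRPC1 downstream site, chr3:142527051-142527251, plus strand: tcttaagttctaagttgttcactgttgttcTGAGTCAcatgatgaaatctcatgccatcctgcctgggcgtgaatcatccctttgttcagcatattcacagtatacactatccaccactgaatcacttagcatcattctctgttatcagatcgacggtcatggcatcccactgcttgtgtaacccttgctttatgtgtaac
PKD2 upstream site, chr4:88894530-88894730, plus strand: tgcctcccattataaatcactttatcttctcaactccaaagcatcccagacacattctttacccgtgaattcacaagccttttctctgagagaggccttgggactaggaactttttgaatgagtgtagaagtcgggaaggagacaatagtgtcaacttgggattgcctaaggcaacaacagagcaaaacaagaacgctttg
PKD1 promoter, chr16:2186098-2186298, plus strand: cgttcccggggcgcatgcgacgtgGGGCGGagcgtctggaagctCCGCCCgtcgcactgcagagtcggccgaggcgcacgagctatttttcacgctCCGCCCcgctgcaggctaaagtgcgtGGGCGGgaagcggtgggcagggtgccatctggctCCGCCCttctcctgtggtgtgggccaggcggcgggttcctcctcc
PIEZO2 intron 2 site, chr18:11005680-11005880, plus strand: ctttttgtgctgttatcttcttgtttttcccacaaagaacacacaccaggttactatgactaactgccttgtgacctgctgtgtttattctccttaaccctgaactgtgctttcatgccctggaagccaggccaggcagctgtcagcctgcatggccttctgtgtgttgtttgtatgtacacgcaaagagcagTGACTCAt
TRPC6 intron 11 site, chr11:101324470-101324670, plus strand: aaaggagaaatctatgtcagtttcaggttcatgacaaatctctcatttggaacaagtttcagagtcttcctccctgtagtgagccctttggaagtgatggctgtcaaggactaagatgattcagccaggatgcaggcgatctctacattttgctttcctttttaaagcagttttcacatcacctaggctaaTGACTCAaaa
PIEZO1 intron 21 site, chr16:88798323-88798523, plus strand: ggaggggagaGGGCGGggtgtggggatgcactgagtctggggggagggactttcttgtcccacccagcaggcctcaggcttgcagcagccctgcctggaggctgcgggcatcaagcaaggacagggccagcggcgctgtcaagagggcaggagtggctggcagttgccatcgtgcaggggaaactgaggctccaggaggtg
TRPV4 downstream site, chr12:110213135-110213335, plus strand: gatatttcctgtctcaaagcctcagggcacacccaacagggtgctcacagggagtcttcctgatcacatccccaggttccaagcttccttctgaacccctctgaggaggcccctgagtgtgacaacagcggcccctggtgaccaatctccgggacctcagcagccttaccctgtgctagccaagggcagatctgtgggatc
PCOLCE2 start in the TRPC1 locus, chr3:142547674-142547874, plus strand: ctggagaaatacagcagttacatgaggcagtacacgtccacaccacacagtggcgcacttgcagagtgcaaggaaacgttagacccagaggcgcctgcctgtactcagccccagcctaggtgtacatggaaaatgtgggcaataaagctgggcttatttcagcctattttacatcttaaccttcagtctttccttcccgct

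The AP-1 letters were found in 21 of the 92 sites (22.8%) and in 30.2% of all consensus sites. The TEAD letters were in 20 sites (21.7%, against 19.1% of all) and the GC box in 12 (13.0%, against 16.0%). Among the 15 sites that were of the stiff matrix only on either day, 4 held the AP-1 letters, 2 the TEAD letters and 1 the GC box. A match describes letters in a window and does not show binding. The PKD1 promoter window was 70.6% G or C and held 5 GC boxes, while the window behind TRPC1 was 42.8% G or C with 1 AP-1 match.

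Of the 92 sites, 9 were promoter sites of a channel gene, with the summit up to 1 kb from the start of a protein-coding transcript. Another 3 lay at starts of non-coding or overlapping transcripts inside the genes, 14 at the start of another gene, 37 elsewhere in gene bodies and 29 in the flanks. The share near any annotated start was 28.3% of the 92 sites and 26.0% of all sites. A peak in all 8 libraries was found at 27 sites (29.3%, against 32.1% of all sites), and another 14 (15.2%, against 15.01%) lacked one only in D2 soft replicate 1. The channel loci thus lay near the series as a whole in these shares, in median width (660 bp, against 686 bp) and in the median number of libraries with a peak (6 in both).

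PIEZO2 had the most sites, 19, of which 15 lay inside the gene and away from any start. TRPC6 had 13 sites, KCNK2 had 12, and PIEZO1, TRPV4 and PKD2 had 11 each. PKD1 had 8, TRPC1 had 4 and TRPM7 had 3. Since the loci differ in length, from 147 kb for PKD1 to 583 kb for PIEZO2, the order per length was another one. TRPV4 came first with 7.32 sites per 100 kb, then PIEZO1 with 6.48, PKD2 with 6.47 and PKD1 with 5.44, and TRPM7 was last with 1.28. By mean peaks per 100 kb over the 8 libraries, PIEZO1 stood at the 80.5th percentile of protein-coding genes, PKD1 at the 78.3rd, PKD2 at the 72.6th and TRPM7 at the 14.0th, the median gene having 3.16 peaks per 100 kb. These densities include the starts of neighbouring genes: 6 of the 11 sites of PIEZO1 were such starts, among them those of RNF166, CTU2, APRT and CDT1.

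**Figure D1:**
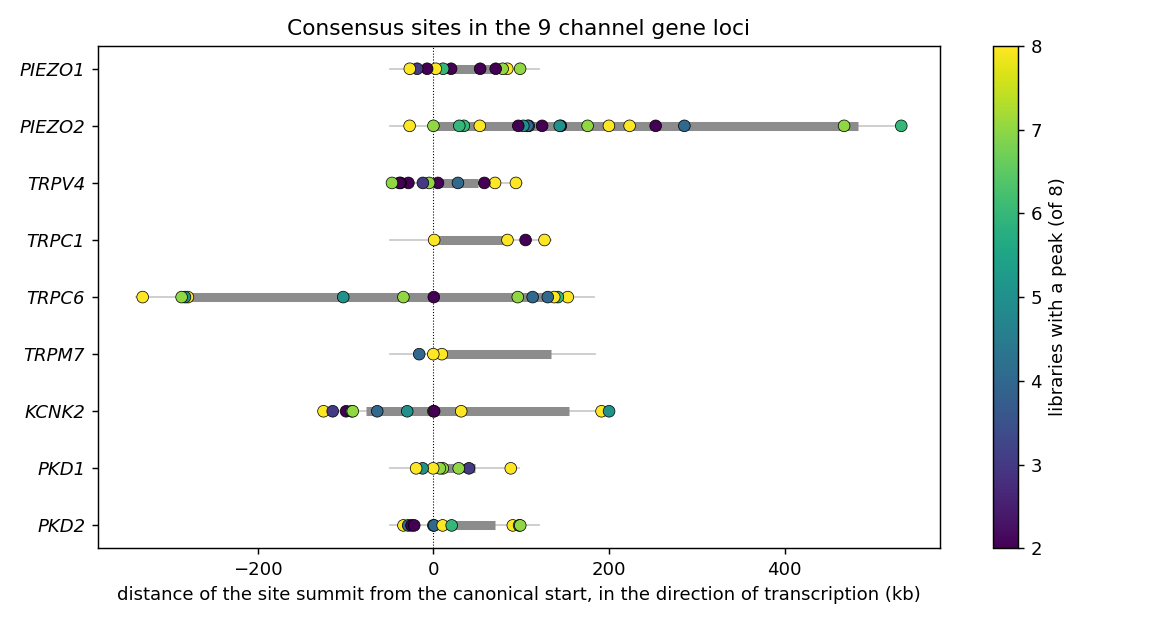
Consensus sites of each locus by the distance of the summit from the canonical start of the gene (horizontal axis, kb, negative upstream). Thick bars show the annotated gene, thin lines the locus, and the colour the number of libraries with a peak, from 2 to 8; the 19 PIEZO2 sites spread over the gene, while TRPM7 has 3 near its start. The bar of TRPC6 runs upstream of 0 because the annotation holds longer transcripts than the canonical one.

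The first comparison asked which channel promoters were open. Promoter peaks, with the summit up to 1 kb from a protein-coding start, were found in every library for TRPC1, TRPM7 and PKD1, in 7 libraries for PIEZO1, PIEZO2, KCNK2 and PKD2, in 2 for TRPC6 and in none for TRPV4. Of all protein-coding genes, 43.4% had a promoter peak in every library and 30.9% had one in none. The 9 genes thus gave 54 gene and library pairs with a promoter peak out of 72. In single libraries 5 to 8 of the 9 had one, against 45.3% to 64.8% of all genes.

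The PKD1 promoter (chr16:2185881-2186683) had the highest fold enrichment of the channel promoters in 7 of 8 libraries, and that of TRPM7 was higher in D2 soft replicate 1. Its fold enrichment, the pileup at the summit over the local background of the same library, was 6.34 and 12.8 (D2 soft), 9.82 and 14.3 (D2 stiff), 8.78 and 8.50 (D4 soft) and 13.1 and 12.9 (D4 stiff). Its rank percentile, the share of the peaks of the same list that it exceeded, was 52.9 and 92.2 (D2 soft), 74.8 and 95.2 (D2 stiff), 67.5 and 70.4 (D4 soft) and 94.0 and 89.9 (D4 stiff). On day 4 both stiff libraries lay above both soft libraries in rank, and on day 2 the groups overlapped. The median percentile was 91.9 over the stiff and 68.9 over the soft libraries, and the rank score fit below did not call the difference. PKD1 has near-identical partial copies elsewhere on chromosome 16, and reads shared with them could have been placed either way.

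The promoter of its partner PKD2 (sites chr4:88928376-88928916 and chr4:88929179-88930272) ranked lower. The fold enrichment was 5.56 (D2 soft replicate 2 alone), 7.13 and 5.28 (D2 stiff), 7.62 and 6.48 (D4 soft) and 6.24 and 6.37 (D4 stiff), and the percentile ran from 18.3 to 55.0. On day 4 both stiff libraries were below both soft ones, and on day 2 the stiff libraries lay either side of the 1 soft value. The D4 soft replicate 2 value came from the second site, with its summit 836 bp inside the gene. At the first site, by the start itself, that library had no peak, so the day 4 order sets different peaks side by side. The highest was D4 soft replicate 1.

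The TRPM7 promoter (chr15:50978136-50979541) had a fold enrichment of 8.13 and 6.89 (D2 soft), 6.20 and 6.88 (D2 stiff), 6.94 and 6.58 (D4 soft) and 8.17 and 8.72 (D4 stiff). The percentiles were 77.9 and 40.9 (D2 soft), 33.99 and 37.1 (D2 stiff), 47.0 and 47.5 (D4 soft) and 55.5 and 59.8 (D4 stiff). On day 2 both stiff libraries were below both soft ones, and on day 4 both were above them.

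The TRPC1 promoter (chr3:142442518-142443994), whose strongest summits lay 29 to 866 bp inside the gene, with further summits 26 and 2 bp inside it in D2 stiff replicates 1 and 2, had a fold enrichment of 5.15 and 7.58 (D2 soft), 6.51 and 7.68 (D2 stiff), 6.51 and 7.13 (D4 soft) and 9.20 and 7.88 (D4 stiff). On day 4 both stiff libraries were above both soft ones in fold enrichment but not in rank percentile, and on day 2 the groups overlapped. The percentiles ran from 30.4 to 66.3. The TRPC6 promoter (chr11:101454078-101454655, in exon 1 of the canonical transcript) had a peak only in D2 stiff replicate 1 (fold enrichment 3.62, percentile 2.76) and D4 stiff replicate 1 (6.59, percentile 37.7). That is 1 of 2 stiff libraries on each day and 0 of 4 soft libraries, which falls short of a group pattern.

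TRPV4 had no promoter peak in any list. In 7 libraries the nearest peak had its summit 4863 to 4957 bp upstream of the canonical start, in a site (chr12:110275842-110276646) with a fold enrichment of 8.85 (D2 soft replicate 2 alone), 6.64 and 8.41 (D2 stiff), 8.95 and 6.46 (D4 soft) and 8.14 and 9.27 (D4 stiff). In D2 soft replicate 1 the nearest summit was 55172 bp away. A gene without a promoter peak in a list of called peaks had no signal past the caller's threshold there, which does not show that its promoter is closed.

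The PIEZO1 promoter peaks were weak. The fold enrichment was 4.15 and 3.35 (D2 soft), 4.32 and 3.54 (D2 stiff), 4.23 (D4 soft replicate 2 alone) and 5.09 and 4.15 (D4 stiff), and the percentile 1.22 to 19.5. By −log10 p, the other rank read here, the percentiles of the same peaks ran from 5.13 to 53.3. The strongest promoter summit of each library lay 463 to 977 bp inside the gene, with another at 59 bp in D4 stiff replicate 2. The peaks merged with stronger ones further in, found in lists other than D2 soft replicate 1. The site spanning the PIEZO1 start (chr16:88848790-88851635) thus had its strongest summit 2606 bp from the start, in intron 1. In D2 soft replicate 1 the value of the site was that of the promoter peak itself. Values at this site, here and below, can thus come from different summits. That site had a peak in all 8 libraries, with a fold enrichment of 4.15 and 5.72 (D2 soft), 7.04 and 6.82 (D2 stiff), 8.75 and 7.77 (D4 soft) and 5.17 and 7.63 (D4 stiff). The PIEZO2 promoter (chr18:11149171-11149939) was stronger, with a fold enrichment of 4.78 and 8.08 (D2 soft), 5.33 and 7.91 (D2 stiff), 5.06 (D4 soft replicate 1 alone) and 7.51 and 5.22 (D4 stiff). Soft and stiff overlapped on day 2, and the single D4 soft value was below both D4 stiff values in fold enrichment.

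The KCNK2 promoter had a fold enrichment of 4.83 (D2 soft replicate 2 alone), 4.70 and 6.06 (D2 stiff), 6.37 and 3.84 (D4 soft) and 5.53 and 6.75 (D4 stiff). It lay in 2 sites, chr1:215255746-215256303 with a peak in 7 libraries and chr1:215256613-215257149 with a peak in D4 soft replicate 1 and D4 stiff replicate 2. Its percentiles ran from 8.34 to 39.7, so the TREK-1 promoter stayed in the lower part of each list. The median promoter of all genes stood at the 61.4th to 69.0th percentile of its list, and of the channel promoters the PKD1 one alone was above that in most libraries. Ranked by −log10 p instead, the percentiles ran from 48.2 to 89.4 for PKD1, 37.02 to 77.4 for TRPM7, 29.3 to 74.3 for TRPC1, 27.3 to 64.3 for PKD2, 18.8 to 49.3 for PIEZO2, 6.60 to 35.3 for KCNK2 and 2.27 to 27.5 for TRPC6.

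**Figure D2:**
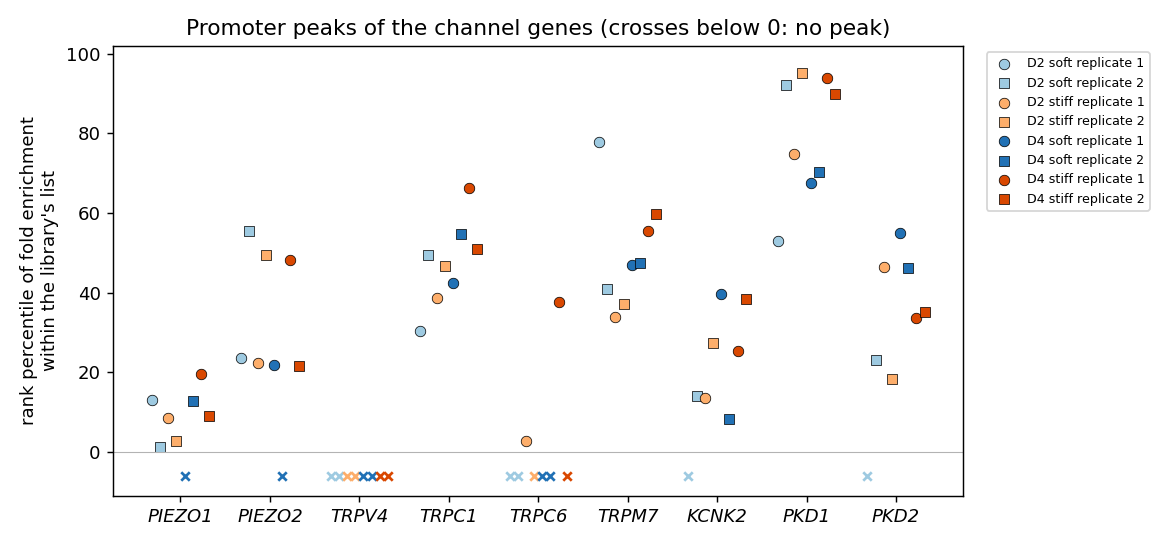
Rank percentile of the promoter peak within the list of its library (vertical axis, 100 is the highest fold enrichment) for each channel gene, with 1 point per library, coloured by group. Crosses below 0 mark libraries without a promoter peak; PKD1 lies between 52.9 and 95.2, PIEZO1 between 1.22 and 19.5 and TRPV4 has crosses only.

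By the pattern of promoter ranks over the 8 libraries, and among 8734 other genes with a promoter peak in each, the gene most like PKD1 was PHB2, with a mean absolute difference of 4.09 percentile points. The gene most like TRPC1 was FBLN7 (4.21 points). For TRPM7 it was CYP46A1 (4.02 points), after ENSG00000288645, which starts at the same place and takes the very same peaks.

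Distal sites with a peak in each of the 8 lists are given next. Behind the 3′ end of TRPC1 lay the best ranked of all 92 sites (chr3:142526822-142527332, 421 bp past the gene). Its fold enrichment was 8.28 and 14.7 (D2 soft), 14.2 and 16.2 (D2 stiff), 15.9 and 12.3 (D4 soft) and 13.6 and 14.1 (D4 stiff), and its percentile was 79.4 to 99.2. Another site in the same flank, inside PCOLCE2 (chr3:142569079-142569502), also had a peak in all 8. Its percentile was 17.0 in D2 soft replicate 1 and reached 92.8 elsewhere.

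Upstream of PKD2, the site 34157 bp from the start (chr4:88894325-88894997) had a fold enrichment of 8.81 and 10.1 (D2 soft), 12.8 and 12.1 (D2 stiff), 15.2 and 9.77 (D4 soft) and 13.9 and 12.5 (D4 stiff). In fold enrichment both stiff libraries were above both soft ones on day 2, and the groups overlapped on day 4. In the rank scores used below the day 2 groups overlapped too. The difference was 0.25 ± 0.531 (SE; limma, adjusted p = 0.939). The site ranked between the 76.1st and the 98.6th percentile. The TRPM7 site in intron 1 (chr15:50969154-50969723) had a fold enrichment of 5.97 and 10.3 (D2 soft), 14.5 and 15.5 (D2 stiff), 10.9 and 12.7 (D4 soft) and 12.6 and 10.6 (D4 stiff), with both D2 stiff libraries above every other library. The KCNK2 site in intron 2 (chr1:215287231-215288266) had a fold enrichment of 8.19 and 10.5 (D2 soft), 10.7 and 12.7 (D2 stiff), 10.8 and 10.7 (D4 soft) and 12.3 and 8.48 (D4 stiff). In fold enrichment both stiff libraries were above both soft ones on day 2, with overlapping groups on day 4. In the rank scores used below the day 2 groups overlapped at this KCNK2 site. The difference was 0.08 ± 0.515 (SE; limma, adjusted p = 0.983).

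In the TRPV4 locus the best ranked site lay 43612 bp past the gene, within FAM222A (chr12:110176998-110177843), with a fold enrichment of 10.3 and 13.1 (D2 soft), 10.7 and 12.7 (D2 stiff), 9.73 and 7.31 (D4 soft) and 13.7 and 10.3 (D4 stiff). In PIEZO2 it was a site in intron 3 (chr18:10925713-10928063), with a fold enrichment of 6.04 and 10.1 (D2 soft), 8.32 and 8.90 (D2 stiff), 7.10 and 9.60 (D4 soft) and 8.60 and 8.53 (D4 stiff). In TRPC6 it was a downstream site (chr11:101301227-101302187), with a fold enrichment of 4.32 and 5.27 (D2 soft), 8.25 and 7.06 (D2 stiff), 8.06 and 7.21 (D4 soft) and 9.97 and 9.74 (D4 stiff). In this TRPC6 site the fold enrichment was lowest in both D2 soft libraries and highest in both D4 stiff libraries. In the rank scores used below, stiff minus soft over both days was 0.58 ± 0.339 (SE, limma, adjusted p = 0.714). D4 minus D2 over both matrices was 0.83 ± 0.339 (SE, limma, adjusted p = 0.666). How many of all sites show such an order was not counted. PIEZO1 had no such site beyond the one that spans its start, and the 3 PKD1 sites found in all 8 libraries were its own promoter and those of the NTHL1 and TSC2 pair and of TRAF7.

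The second comparison asked which sites were found on one matrix only. A site of this kind had a peak in both libraries of one matrix and in neither of the other, on the same day. With 2 against 2 libraries a permutation p cannot go below 0.333, so no p-value is given. On day 2, 8 sites were stiff-only (8.70% of 92, against 7.45% of all sites) and 1 was soft-only (against 0.391%). On day 4, 7 were stiff-only (7.61%, against 6.72%) and 0 were soft-only (against 1.31%). No site was stiff-only on both days (against 0.85% of all sites) and none was soft-only on both days (against 0.0172%). The shares in the channel loci were thus near those of the whole series. Stiff-only sites were more frequent than soft-only sites in both, beside stiff lists that were longer on average. With each list shortened to the 29789 peaks of lowest p, 40 sites were left, of which day 2 had 4 of the stiff matrix only (against 4.06% of all sites in those lists) and 3 of the soft (against 3.24%), and day 4 had 0 (against 3%) and 2 (against 2.81%). On both days together 0 were stiff-only (against 0.279%) and 1 was soft-only (against 0.167%). That setting changes both the length of a list and how strong a peak must be, and the part of either was not tested.

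Single libraries set these counts, as 2 libraries a group allow, and leaving one out also loosens the rule. Without D2 soft replicate 2, 30 sites were D2 stiff-only, and without D2 stiff replicate 1 or 2 they were 14 or 15. Without D2 soft replicate 1, the list with a peak at 30 of the 92 sites, they were 8 again and 5 sites were D2 soft-only, while without D2 soft replicate 2 none was and without D2 stiff replicate 2 there were 2. D4 stiff-only sites numbered 17 without D4 soft replicate 1 and 12 without D4 soft replicate 2. Without D4 soft replicate 1, 3 sites were stiff-only on both days, and without D2 soft replicate 2 there were 2. D4 soft-only sites numbered 1 or 2 without either D4 soft or either D4 stiff library.

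In PIEZO2, 3 sites were D2 stiff-only. The strongest overlaps the start of the long non-coding RNA LINC01887, 49528 bp past the gene (chr18:10616431-10617100), with a fold enrichment of 10.3 and 14.8 (D2 stiff), 9.85 and 11.7 (D4 soft) and 11.5 and 13.4 (D4 stiff), with no peak in D2 soft. It was thus among the stronger peaks of 6 lists, at the 76.7th to 96.4th percentile, and in no D2 soft list. The site in intron 2 shown above (chr18:11005618-11005902) had a fold enrichment of 9.82 and 10.2 (D2 stiff), 9.09 and 7.47 (D4 soft) and 9.68 (D4 stiff replicate 2 alone), with no peak in D2 soft. These 2 kept a peak in 6 and 5 libraries when the lists were of equal length. The remaining one (chr18:11047051-11047585, intron 2) had a fold enrichment of 7.62 and 7.28 (D2 stiff), 5.65 (D4 soft replicate 1 alone) and 4.83 and 10.3 (D4 stiff), with no peak in D2 soft, and kept a peak in 1 library at equal length.

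The only D2 soft-only site also lay in PIEZO2, in intron 4 (chr18:10896443-10897113). Its fold enrichment was 3.85 and 3.47, at percentiles 6.52 and 1.63 of the lists of D2 soft replicates 1 and 2. It was lost when peaks were held to a q-value of at most 0.001.

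KCNK2 had 3 D2 stiff-only sites, all upstream of the canonical start. The site chr1:215162587-215163072 had a fold enrichment of 5.83 and 5.37 (D2 stiff), 5.73 and 4.46 (D4 soft) and 7.19 and 6.38 (D4 stiff), with no peak in D2 soft. The site chr1:215191923-215192292 had a fold enrichment of 6.48 and 6.99 (D2 stiff), 5.14 (D4 soft replicate 1 alone) and 5.57 (D4 stiff replicate 2 alone), with no peak in D2 soft. At chr1:215225893-215226593 it was 4.29 and 7.96 (D2 stiff), 5.14 (D4 soft replicate 1 alone) and 5.01 and 8.27 (D4 stiff), with no peak in D2 soft. A further KCNK2 site, 45591 bp past the gene (chr1:215455733-215456168), was D4 stiff-only, with a fold enrichment of 5.52 (D2 soft replicate 2 alone), 6.12 and 8.13 (D2 stiff) and 5.86 and 12.4 (D4 stiff), with no peak in D4 soft. In it both D2 stiff libraries and 1 D2 soft library also had a peak. In lists of equal length the 3 D2 stiff-only sites had a peak in 0 libraries and the D4 stiff-only one in D4 stiff replicate 2 alone.

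TRPC6 had 3 sites of the stiff matrix. In intron 11 (chr11:101324246-101324753) the D4 stiff-only site had a fold enrichment of 6.21 (D2 soft replicate 2 alone), 8.50 (D2 stiff replicate 2 alone) and 8.24 and 12.7 (D4 stiff), with no peak in D4 soft. The other D4 stiff-only site lay in the long upstream transcripts (chr11:101737463-101737889) and was weak, with a fold enrichment of 3.73 (D2 soft replicate 2 alone), 4.91 and 4.30 (D2 stiff) and 3.28 and 5.27 (D4 stiff), with no peak in D4 soft. The D2 stiff-only site there (chr11:101557249-101557795) had a fold enrichment of 7.96 and 5.59 (D2 stiff), 5.78 (D4 soft replicate 1 alone) and 7.75 and 7.18 (D4 stiff), with no peak in D2 soft. TRPM7 had 1 D2 stiff-only site, 16217 bp upstream within SPPL2A (chr15:50995101-50995484), with a fold enrichment of 5.79 and 4.89 (D2 stiff), 4.49 (D4 soft replicate 1 alone) and 6.04 (D4 stiff replicate 1 alone), with no peak in D2 soft. In lists of equal length the TRPC6 intron 11 site had a peak in D4 stiff replicate 2 alone, and the other 3 of these sites had one in 0 libraries.

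Peaks in both D4 stiff libraries and in no other library were found at 3 sites. In PIEZO1 the site lay in intron 21, at the start of the overlapping transcript ENSG00000224888 (chr16:88798357-88798808), with the low fold enrichment of 3.70 and 3.84. In TRPV4 it lay 7657 bp past the gene (chr12:110213072-110213506), with a fold enrichment of 6.74 and 7.48. In the TRPC1 locus it lay at the start of a transcript of PCOLCE2 (chr3:142547658-142547961), a gene for an enhancer of procollagen processing, with a fold enrichment of 4.94 and 8.05. None of the 3 kept a peak in lists of equal length. In the PKD2 locus the D4 stiff-only site overlapped a transcript start of SPP1, the gene of the matrix protein osteopontin (chr4:88899906-88900379), with a fold enrichment of 4.31 (D2 soft replicate 2 alone), 5.94 (D2 stiff replicate 2 alone) and 6.80 and 6.30 (D4 stiff), with no peak in D4 soft. That site too had a peak in 0 libraries at equal length. PKD1 had no site of one matrix only.

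**Figure D3:**
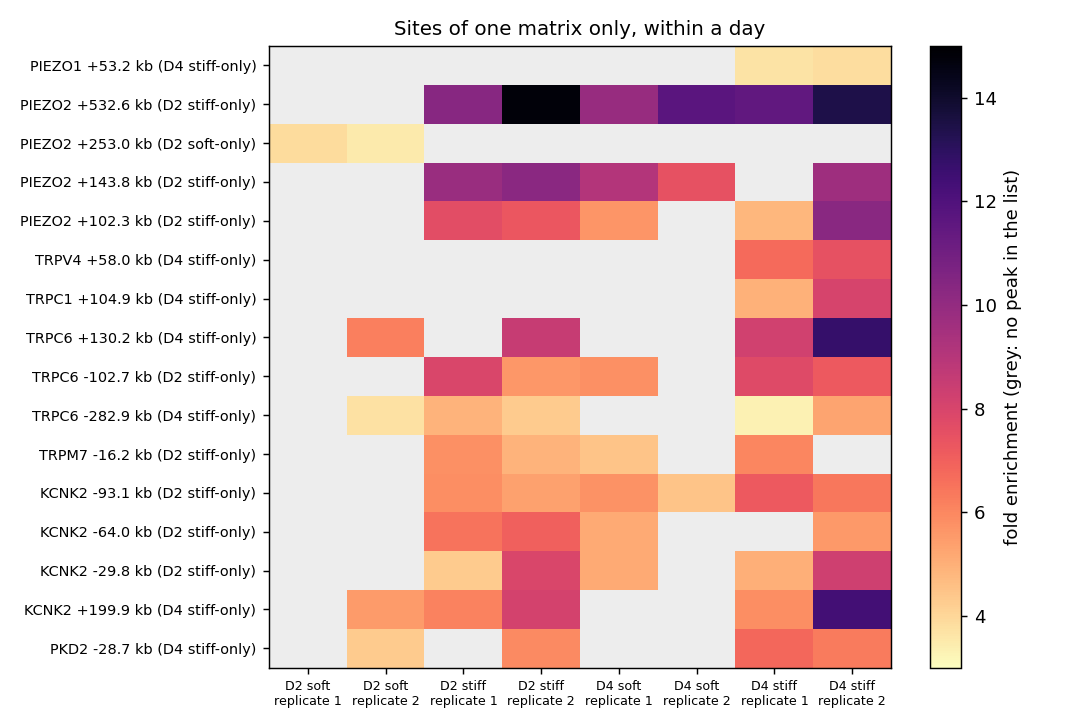
Fold enrichment (colour) in each of the 8 libraries (columns) at the 16 sites of one matrix only within a day (rows, with the distance from the canonical start); grey means no peak in that list. All 8 D2 stiff-only rows have colour in at least 1 D4 soft column, and 3 rows have colour in the D4 stiff columns alone.

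The sites of one day were followed to the other. All 8 D2 stiff-only sites had a peak in at least 1 D4 soft library, against 68.8% of the 5627 such sites of the series, and all 8 had one in at least 1 D4 stiff library (against 87.2%). Of the 7 D4 stiff-only sites, 4 had a peak in a D2 soft library (35.9% of the 5077 such sites) and 4 in a D2 stiff library (64.8%). With 8 and 7 sites these shares are coarse.

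Day 4 was then set against day 2. On soft gel 5 sites were day 4-only (5.43%, against 5.79% of all sites) and 1 was day 2-only (against 0.403%). On stiff gel 5 were day 4-only (5.43%, against 5.35%) and 0 were day 2-only (against 1.41%). In lists of equal length the soft gel had 5 day 4-only sites (against 3.16% of all sites in those lists) and 1 day 2-only site (against 2.7%), and the stiff gel had 2 (against 2.75%) and 0 (against 2.59%). Of the soft day 4-only sites of the full lists 3 were in PIEZO2, and of the stiff ones 2 were in TRPV4. Without D2 soft replicate 2, D4 soft replicate 1 or D4 soft replicate 2 the soft day 4-only sites numbered 20, 10 and 18, and without D2 stiff replicate 2 the stiff ones numbered 9. The day 2-only sites of the soft matrix were 7 without D2 soft replicate 1, 0 without D2 soft replicate 2 and 2 without either D4 soft library, and those of the stiff matrix were 1 or 2 without any of the 4 stiff libraries.

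The number of peaks in each locus was set beside the matrix. In the TRPC1 locus there were 3 peaks in each of the 4 soft libraries and 5, 4, 4 and 4 in the stiff libraries, so that every stiff library was above every soft one. Among all genes with a peak, 5.27% showed this order. It was the only channel locus to do so, and per 10000 peaks of the list 0 of the 9 did (against 1.99% of genes), as did 0 in the opposite order (against 2.88%). Over the 9 loci together the D2 soft lists had 31 and 70 peaks, the D2 stiff lists 75 and 77, the D4 soft lists 78 and 64, and the D4 stiff lists 85 and 87. Per 10000 peaks these sums were 10.4 and 12.6, 12.7 and 12.1, 12.3 and 11.4, and 12.9 and 11.9. The ratio of the stiff to the soft mean was 1.33 for the lists as deposited, 1.06 per 10000 peaks and 0.962 for lists of equal length.

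PIEZO2 had 14.25 ± 4.92 peaks on the soft and 16 ± 2.58 on the stiff matrix (SD, n = 4), and TRPC6 had 8.5 ± 3.11 and 13 ± 1.63. In both, the ranges overlapped. For TRPV4 the means were 5 ± 2 and 8 ± 2.71 (SD, n = 4), where D4 stiff replicate 2 had 12 peaks and the other stiff libraries 6 or 7. In lists of equal length the TRPV4 means were 3.5 on both matrices.

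**Figure D4:**
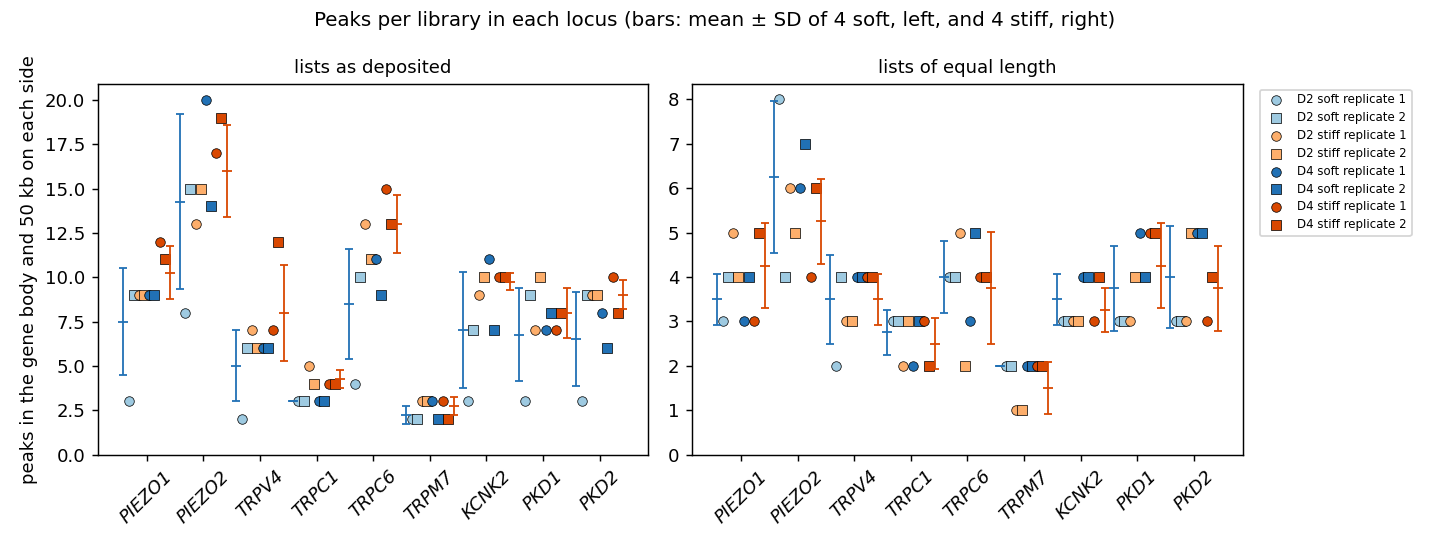
Peaks per library in each locus (vertical axis) in the lists as deposited (left) and in lists of equal length (right), 1 point per library, with the mean and SD of the 4 soft and the 4 stiff libraries beside them. The TRPC1 stiff points, 4 or 5, lie above the soft points at 3 on the left, and on the right every locus overlaps.

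The third comparison asked whether the strength of shared sites differed. All 8 libraries had a peak at 24246 sites, 27 of them in the channel loci. Their fold enrichments were replaced by ranks in each library, turned into a normal score with an SD near 1 over the sites, and fitted with limma, with Benjamini-Hochberg adjustment over all sites. No channel site was called at an adjusted p under 0.05 in any of the 5 contrasts or under any alternative setting. For stiff against soft, the share of all sites called was 0.00412% on day 2, 0.00825% on day 4 and 0.00825% over both days, and for D4 against D2 and for the interaction of stiffness with day it was 0% each. For stiff against soft, limma gave an unadjusted p under 0.05 at 5 of 27 sites on day 2 (18.5%, against 7.65% of all sites). There were 2 on day 4 (7.41%, against 5.35%) and 3 over both days (11.1%, against 7.72%). D4 against D2 had 3 (11.1%, against 6.91%) and the interaction 3 (11.1%, against 5.27%). With 27 sites these shares are coarse. The median difference of the 27 sites over both days was -0.06 and that of all sites -0.02, with 10 channel sites above 0 and 17 below.

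Of these, the smallest p over both days belonged to a site in PIEZO2 intron 3 (chr18:10949273-10949965). Its rank percentiles were 65.8 and 68.1 (D2 soft), 38.2 and 22.1 (D2 stiff), 93.4 and 63.5 (D4 soft) and 63.3 and 51.6 (D4 stiff). The stiff minus soft score over both days was -1.30 ± 0.363 (SE; limma, adjusted p = 0.404). In TRPM7 intron 1 (chr15:50969154-50969723) the percentiles were 46.3 and 77.5 (D2 soft), 97.0 and 97.6 (D2 stiff), 84.4 and 96.3 (D4 soft) and 91.6 and 75.5 (D4 stiff), and the day 2 difference was 1.62 ± 0.506 (SE; limma, adjusted p = 0.488). The interaction there was -2.16 ± 0.715 (SE; limma, adjusted p = 0.92), with overlapping groups on day 4.

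A site past PKD2, inside the transporter gene ABCG2 (chr4:89018593-89019409), had percentiles of 17.8 and 59.3 (D2 soft), 88.1 and 75.9 (D2 stiff), 76.6 and 50.05 (D4 soft) and 82.0 and 88.1 (D4 stiff). Its difference over both days was 1.01 ± 0.355 (SE; limma, adjusted p = 0.514). The site that spans the PIEZO1 start (chr16:88848790-88851635) had percentiles of 13.1 and 26.3 (D2 soft), 45.2 and 36.4 (D2 stiff), 67.1 and 62.4 (D4 soft) and 20.2 and 48.5 (D4 stiff), and its day 4 difference was -1.22 ± 0.487 (SE; limma, adjusted p = 0.921). At the start of TRAF7 in the PKD1 locus (chr16:2205051-2205846) the percentiles were 97.8 and 82.3 (D2 soft), 80.5 and 67.9 (D2 stiff), 87.8 and 89.5 (D4 soft) and 77.2 and 80.6 (D4 stiff), and the difference over both days was -0.87 ± 0.363 (SE; limma, adjusted p = 0.598). These 5 differences kept their sign without any one library, with ranges in the closing section. They were picked for their small unadjusted p in the same fits, so a kept sign is no separate support.

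The promoters found in all 8 libraries were in the same fit. The difference over both days was 0.64 ± 0.368 (SE; limma, adjusted p = 0.708) for PKD1. For TRPM7 it was -0.43 ± 0.366 (SE; limma, adjusted p = 0.809), and for TRPC1 -0.02 ± 0.339 (SE; limma, adjusted p = 0.993). The TRPC1 value was near 0 and changed sign under 4 of the alternative settings. The 3 promoters thus differed between the matrices by less than the adjusted test could call, and with 4 libraries a matrix this does not show that they were alike.

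**Figure D5:**
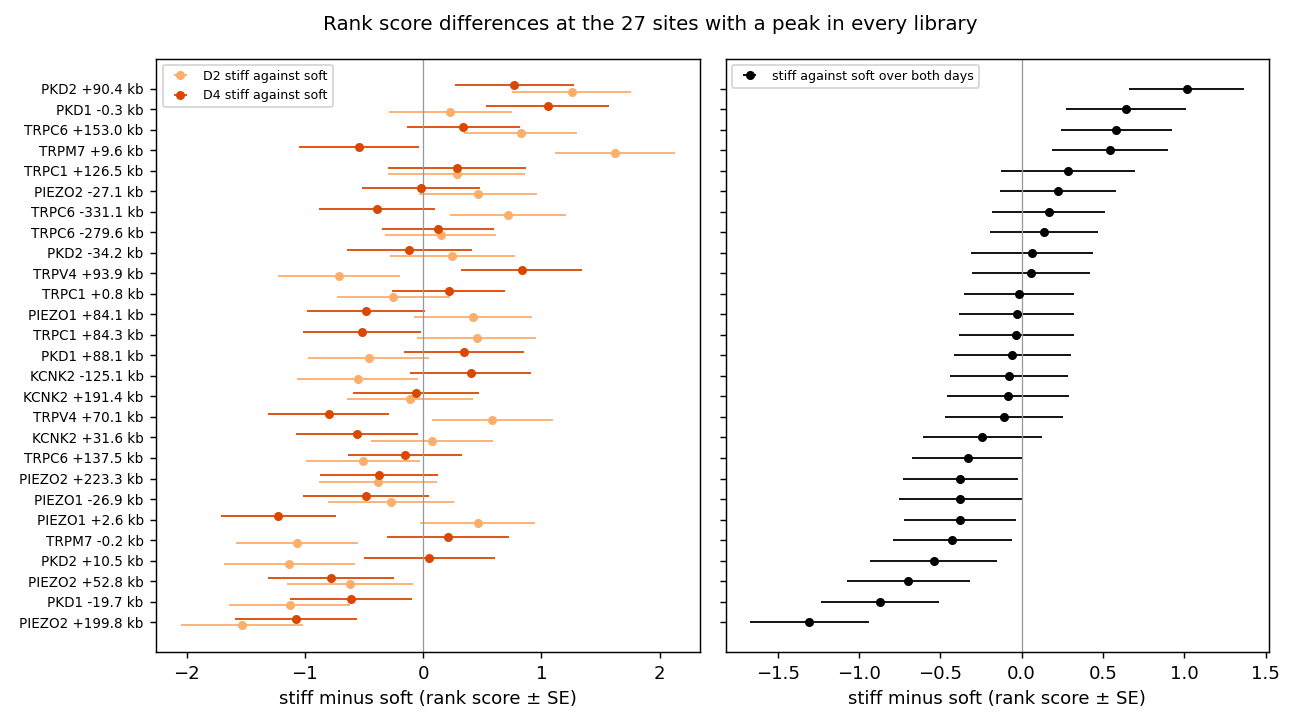
Stiff minus soft difference of the rank score (horizontal axis, points with SE bars) at the 27 shared sites, by day (left) and over both days (right), ordered by the latter. The differences over both days run from -1.30 in PIEZO2 to 1.01 in PKD2, and the smallest adjusted p over both days was 0.404 (limma).

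Genes linked with these channels were read in the same way. Of 13 other channels with stretch- or volume-gated activity, 5 had a promoter peak in every library, among them TMEM63A, LRRC8A and PANX1. Another 5 had none in any library (TMEM63C, KCNK4, TRPC5, TRPA1 and ANO1), and TMEM63B had one in 7, TRPM4 in 6 and KCNK10 in 2. Their loci held 89 sites, of which 5 were D2 stiff-only (5.62%, against 7.45% of all sites) and 9 D4 stiff-only (10.1%, against 6.72%). There were 2 sites stiff-only on both days (2.25%, against 0.85%), 0 D2 soft-only (against 0.391%) and 1 D4 soft-only (1.12%, against 1.31%).

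Of 8 channel partners and calcium entry genes, 3 had a promoter peak in every library: ORAI1, the pore of store-operated calcium entry, and the store sensors STIM1 and STIM2. MDFI, a gene for a PIEZO-binding protein, and STOML3, a gene for a modulator of PIEZO channels, had none, and MDFIC had one in 7, ORAI2 in 6 and ORAI3 in 4. Their loci held 56 sites, with 9 D2 stiff-only (16.1%, against 7.45% of all sites), 2 D4 stiff-only (3.57%, against 6.72%) and 0 soft-only on either day (against 0.391% and 1.31%).

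Of 14 calcium effectors, 9 had a promoter peak in every library: calmodulin gene CALM2, the calcineurin genes PPP3CA, PPP3CB and PPP3R1, the NFAT factor genes NFATC3 and NFATC4, the kinase gene CAMK2D and the calpain genes CAPN1 and CAPN2. Among the others, NFATC2 had one in 6, CAMK2G in 4 and NFATC1 in none. Their loci held 148 sites, with 12 D2 stiff-only (8.11%, against 7.45% of all sites) and 17 D4 stiff-only (11.5%, against 6.72%). There was 1 site stiff-only on both days (0.676%, against 0.85%), with 2 D2 soft-only (1.35%, against 0.391%) and 1 D4 soft-only (0.676%, against 1.31%). A promoter peak in every library was thus found for 9 of 14 effectors, for 3 of 9 channel genes and for 43.4% of all protein-coding genes.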

How the data were processed

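ATAC-seq peak lists of 8 LX-2 libraries, 2 in each of 4 groups, were analysed. Per the labels, the authors trimmed reads with Trim Galore, mapped them to hg19 with Bowtie2 2.4.1 and called peaks in each library with MACS2 (bedtools 2.24.0 and Picard are also named), at a q-value threshold of 0.05 per their methods. Other MACS2 options, the Tn5 offset and the treatment of reads with several matches are not given in the sources used here. The deposited fold enrichment is a ratio to a background that the caller took from that library alone. The −log10 p and −log10 q values that the authors deposited rest on it, and the highest q was 0.0498. The deposited score was not used, and the other deposited column gives the summit offset. Read depth is unknown, so no interval or count model was used, and values were compared as ranks within a list.

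Overlapping peaks (1 bp or more) of the 8 lists were joined, and a joined region counted as a site where 2 or more libraries had a peak in it. Coordinates are 1-based on GRCh37, with GENCODE release 44 mapped to that build. Distances are from the start of the canonical transcript. Normal scores of the ranks at sites with a peak in every library were fitted with limma 3.58.1 in R 4.3.3, with 4 group means, and the fit was tested on simulated data. Other steps used Python 3.11.15 with pandas 2.3.3 and numpy 2.4.6. Alternatives were lists of equal length (the 29789 peaks of lowest p), q up to 0.001, a stricter overlap, a flank of 10 kb, sites of at least 1 library, other promoter windows, ranks of −log10 p, sites with a peak in at least 6 libraries, libraries of one day, a replicate block, and leaving out each library. The authors' read-based test could not be repeated from peak lists.

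The members and the gene lists were chosen with earlier results of these data known. The sites named were the promoter sites, every site of one matrix only, the best ranked distal site of each gene with a peak in every library, and the 5 smallest unadjusted p-values for stiffness. A few others were named after their values were seen: the TRPV4 site nearest to its start, the second distal TRPC1 site and neighbouring gene starts. So were the PKD2 intron sites, the PIEZO2 site at a non-coding start and the TRPV4 site with opposite orders of rank percentile by day. Of the endothelial markers 3 of 4 were found in the annotation (CDH5 had a promoter peak in 4 libraries, KDR in 7 and VWF in 0); of the bile duct markers EPCAM had one in 6 and KRT19, KRT7 and CDH1 in 0. COL1A2 had one in 6 libraries, LRAT in 1, TTR in 2 and SERPINA1 in 1. Some genes of the lists of linked genes are counted but their own results are not reported here.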

Additional observations from a re-analysis of the deposited data

Results flagged for a closer look

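In 28 sets of 4 soft or 4 stiff libraries (peaks per locus, or rank percentiles of a promoter), Dixon's criterion was applied. A single library stood apart from the others in 7, all of them peaks per locus. Chance flags about 1 in 20 such sets where values are continuous. Peak counts are whole numbers with ties, and a set of 3 equal values and 1 other is always flagged. The 7 are thus not read as an excess. In D2 soft replicate 1, the shortest list, the PIEZO1 locus had 3 peaks where the other 3 soft libraries had 9, and the TRPV4 locus had 2 where they had 6. In D4 stiff replicate 2 the TRPV4 locus had 12 peaks, and the next stiff library had 7. The remaining 4 were steps of 1 peak: the TRPC1 locus had 5 peaks in D2 stiff replicate 1 and 4 in the other stiff libraries, the TRPM7 locus had 3 in D4 soft replicate 1 against 2 and had 2 in D4 stiff replicate 2 against 3, and the KCNK2 locus had 9 in D2 stiff replicate 1 against 10.

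At 3 sites the stiff libraries lay, by rank percentile, on one side of the soft libraries on day 2 and on the other side on day 4. At the site that spans the PIEZO1 start both D2 stiff libraries ranked above both D2 soft libraries and both D4 stiff libraries below both D4 soft ones, and the D4 difference minus the D2 difference was -51.5 percentile points. The limma interaction there was -1.69 ± 0.689 (SE; adjusted p = 0.92). At the downstream TRPV4 site within FAM222A, 19828 bp past the gene, the difference was -32.9 points, with a limma interaction of -1.38 ± 0.722 (SE; adjusted p = 0.92). In the rank scores used by limma the day 2 groups overlapped at this TRPV4 site. The score of D2 soft replicate 1 was 0.74, above the D2 stiff scores of 0.611 and 0.616. At the TRPM7 promoter it was 34.3 points in the opposite order, with a limma interaction of 1.28 ± 0.731 (SE; adjusted p = 0.92). None of the 3 passed the adjusted test. The share of all sites with such opposite orders was not counted, so whether 3 is more than usual is unknown.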

How the results depend on the processing

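A stricter overlap for a shared peak left each count within 1.5 times its value, as did sites of at least 1 library, with 133 sites in the loci. With lists of equal length the 92 sites became 40, D2 stiff-only sites 4, D2 soft-only 3, D4 stiff-only 0, D4 soft-only 2, soft-only sites on both days 1 and stiff day 4-only sites 2; promoter pairs of a gene and a library fell from 54 to 24. In these lists the ratio of stiff to soft peaks in the loci reversed, from 1.33 to 0.962, and per 10000 peaks it was 1.06. Lists of equal length are both shorter and held to lower p, and which of these moved the values was not tested. At q up to 0.001, D2 soft-only sites numbered 0, D4 soft-only 1, soft day 2-only 0 and stiff day 4-only 3. With a flank of 10 kb there were 57 sites, 5 D2 stiff-only, 4 D4 stiff-only and 2 soft day 4-only; a shorter flank takes in fewer sites.

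Without each library in turn the sites numbered 83 to 91, D2 stiff-only 8 to 30, D2 soft-only 0 to 5, D4 stiff-only 7 to 17, D4 soft-only 0 to 2, stiff-only on both days 0 to 3, soft day 4-only 5 to 20, soft day 2-only 0 to 7, stiff day 4-only 5 to 9 and stiff day 2-only 0 to 2. The number of sites fell each time. Of the one-group-only counts, D2 soft-only and soft day 2-only moved in both directions, and the others stayed or rose. Leaving out a library loosens the rule for such a site, which then asks for a peak, or for none, in fewer libraries. Other causes were not tested. The ratio of stiff to soft peaks ran from 1.15 to 1.47.

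In the limma fits no channel site was called under any setting. Over all sites, D2 stiff against soft had 1 call, 0 with ranks of −log10 p, 0 with libraries of that day only, and 0 to 297 without single libraries, the highest without D2 soft replicate 2. D4 stiff against soft had 2 calls, 0 with ranks of −log10 p, 1 with sites of at least 6 libraries, and 0 to 6 without single libraries. Over both days there were 2 calls, 0 with sites of at least 6 libraries, and 0 to 90 without single libraries; D4 against D2 ran from 0 to 56. The cause was not tested. The stiff minus soft score ran from -1.63 to -0.96 at the PIEZO2 intron 3 site, 1.27 to 1.89 at the TRPM7 intron 1 site on day 2, 0.74 to 1.22 at the ABCG2 site of the PKD2 locus, -1.71 to -0.73 at the PIEZO1 start on day 4, and -1.24 to -0.49 at the TRAF7 start, without single libraries. Over both days it ran from 0.32 to 0.93 at the PKD1 promoter and from -0.84 to -0.04 at the TRPM7 promoter. The TRPC1 promoter, at -0.02, was 0.065 with ranks of −log10 p and -0.16 to 0.13 without single libraries (0.05, 0.11 and 0.13 without D2 stiff replicate 1, D4 soft replicate 2 and D4 stiff replicate 2).

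Replicate numbers did not pair the libraries: deviations of same-numbered libraries correlated at -0.0414 to 0.0837, and 5 of the 8 lists carry another replicate number in their peak names. With the replicate block the calls over all sites stayed at 1, 2, 2, 0 and 0 for D2, D4, both days, D4 against D2 and the interaction.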

Other observations

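Gene starts that are not channel genes shared the loci with them. The sites at the starts of CEP126 in the TRPC6 locus and of RNF166 in the PIEZO1 locus had a peak in every library, with a mean rank percentile of 94.0 and 87.1, above the promoter of the channel gene itself in both loci. At RNF166 the fold enrichment was 6.32 in D2 soft replicate 1 and 11.2 to 14.2 in the other 7 libraries. At CEP126 it was 8.90 in D2 soft replicate 1 and 12.1 to 15.3 elsewhere. In both, the shortest list thus gave the lowest value.

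Inside PKD2, a site in intron 1, 10496 bp from the start, had a peak in every library with a fold enrichment of 5.77 to 11.9, and another in intron 2 had one in 6 libraries. In PIEZO2, 1 more site lay at a non-coding transcript start in intron 50, with a peak in 7 libraries and a fold enrichment of 7.43 to 13.5. Its values were 7.43 (D2 soft replicate 2 alone), 9.79 and 11.7 (D2 stiff), 10.2 and 7.93 (D4 soft) and 12.4 and 13.5 (D4 stiff). This PIEZO2 site was named after its values were seen, and the share of all sites with such an order was not counted.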
